A study of Mus musculus with 2 samples.

Results

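The genes followed here carry signals of adenosine and of the second messenger cyclic AMP (cAMP). They encode an adenosine receptor (Adora2a), an adenylyl cyclase (Adcy7), 6 phosphodiesterases (Pde2a, Pde3b, Pde4a, Pde4b, Pde4d and Pde7a), a regulatory subunit of protein kinase A (Prkar1a) and a cAMP-responsive transcription factor (Crem). They were taken by gene name from the gene spots of the arrays, which gave 24 probes for the 10 genes, of 39348 probes and 30069 gene names in all. Sorted mouse regulatory T (Treg) cells gave 2 libraries, of which 1 is labelled Nr4a-deficient and the other wild type, and each was read on 1 single-colour Agilent array. Animals of both groups were aged 5 weeks. The protocol calls the donors of the first library Nr4a-TKO mice, and the comparison asks which Treg transcripts differ when the Nr4a nuclear receptors are lacking. Not given in the sources used here were the deleted alleles, any promoter driving Cre, the strain, the tissue, the sort markers and how many animals were pooled.

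cAMP restrains T cell activation. Treg cells are known to make extracellular adenosine with the ectoenzymes Entpd1 (CD39) and Nt5e (CD73), and adenosine acts through Gs-coupled receptors that switch on adenylyl cyclases. cAMP then binds the regulatory subunits of protein kinase A and frees the catalytic ones, which phosphorylate CREB family factors. Phosphodiesterases end the signal by hydrolysing cAMP, and Foxp3, the Treg lineage factor, is known to repress Pde3b. The Nr4a genes are themselves classical targets of CREB.

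In the library labelled Nr4a-deficient, 2 of these 10 genes were higher by 2-fold or more, none was that much lower, and 8 lay within 2-fold. The 2 were phosphodiesterase genes, Pde3b (4.33-fold) and Pde4a (3.02-fold), by the brightest probe of each. For comparison, 16298 genes were well above background in both libraries, of which 2.64% passed 2-fold upwards and 3.06% downwards. The median of the 10 log2 differences was 0.22, against -0.014 over those 16298. Pde3b did not give 1 answer: its other probe was 3.09-fold lower in the same library. With 1 array per genotype there was no test and no replicate check, so every value describes these 2 libraries only. Whether fewer cells carry a transcript or each cell holds less of it cannot be told apart in such bulk RNA.

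The library labels could not be checked fully. Signals of Nr4a1 (1.82-fold) and Nr4a2 (1.97-fold) were higher, not lower, where the label says Nr4a-deficient, and neither array measured Nr4a3 above background. Probes outside a deleted stretch cannot check it, and the deleted stretches were not given. Each direction therefore rests on the label. A difference below is log2 of the signal in the library labelled Nr4a-deficient minus that in the other, each first divided by the array's 75th percentile (1762 and 2047 intensity units). On this scale 8 added spike-in RNAs stood at 0.36 ± 0.057 (mean and SD over spike-ins). Scaling to them instead (the spike-in scale) moves every difference down by 0.36, and values between 0 and 0.36 change sign.

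The probes of Pde3b and Pde4a carried the 2-fold differences, so their sequences are shown. Each probe has 60 bases, and the first 30 are printed 5′ to 3′ in lower case. Positions come from the array design (mm9, plus strand), and which exon or untranslated region each covers is not given, for want of an annotation of that build.

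Pde3b upstream probe (chr7:121681370-121681429): cacttttgctaccacaactacatcatttgt
Pde3b downstream probe (chr7:121682700-121682759): gagataatggaactaacagacattatgact
Pde4a upstream probe (chr9:21015961-21016020): ttgaagtggggtatggagagccaggaactg
Pde4a downstream probe (chr9:21017591-21017650): ttgatcaattggtccgtcgattgacaatca

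None of these 30-base stretches stood in any other probe of the array. The probes of Pde3b begin 1330 bases apart and both have a GC content of 35.0%. Those of Pde4a have 41.7% and 45.0%.

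**Figure D1:**
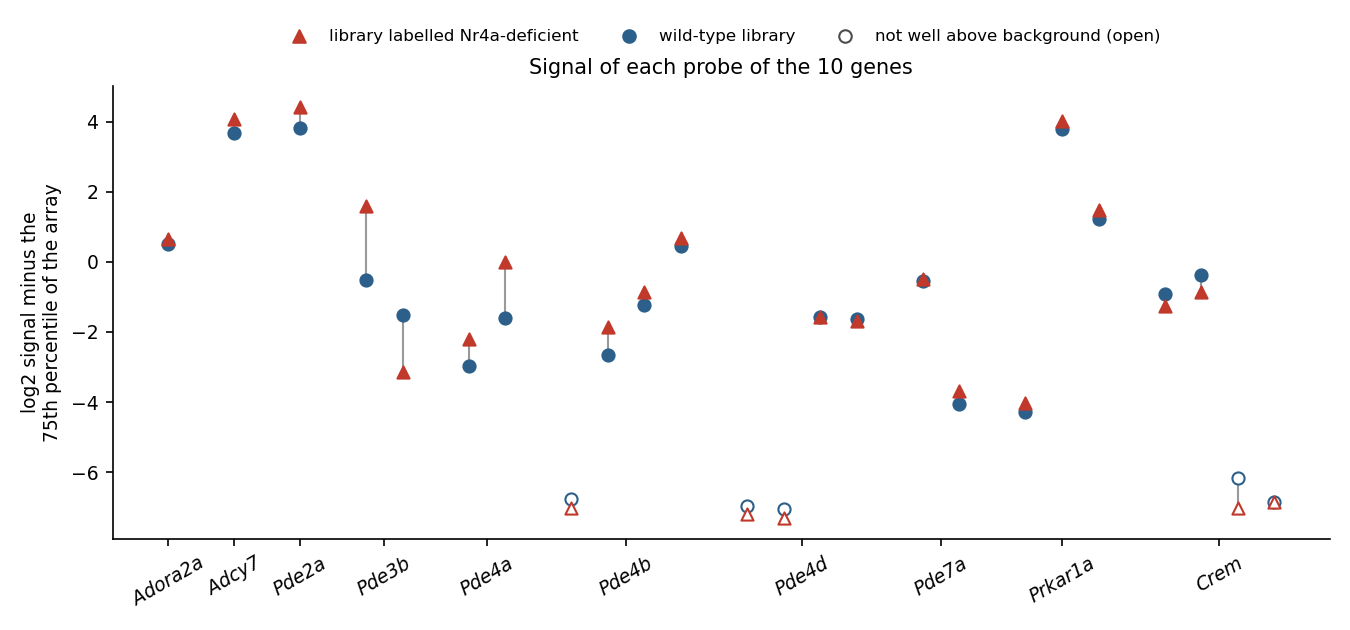
Scaled log2 signal (y axis) of all 24 probes of the 10 genes (x axis, probes of a gene in genome order), with triangles for the library labelled Nr4a-deficient, circles for the wild-type library and open symbols for the 5 probes not well above background. The longest lines between symbols are those of the Pde3b probes, which run in opposite directions, and of the brighter Pde4a probe.

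Adora2a encodes the Gs-coupled receptor through which adenosine raises cAMP in T cells. Its single probe (chr10:74797461-74797520) gave a processed signal of 2786 in the library labelled Nr4a-deficient, against 2919 in wild type. The scaled difference was 0.15, and on the spike-in scale it was -0.22. The receptor transcript was well above background in both libraries, and its difference did not keep its sign on the other scale. Adcy7 encodes a membrane adenylyl cyclase of blood cells. Its single probe (chr8:90853657-90853716) gave 29710 and 26300, a difference of 0.39. The gene stayed above 0 under all 10 processing settings, from 0.027 to 0.45. Settings that changed only the source table or the filter on dim probes repeated the main value for each of the 10 genes. They were therefore no separate check.

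The 6 phosphodiesterase genes spread from 0.01 to 2.11 by their brightest probes. Pde3b encodes a phosphodiesterase that cGMP inhibits and insulin activates. Its upstream probe gave 5344 in the library labelled Nr4a-deficient, against 1433 in wild type, with errors of 535 and 144 assigned by the scanner software. The difference was 2.11, and 99.3% of genes on both arrays lay lower. The downstream probe gave 200.5 ± 23.9 and 719.9 ± 74.3 (software error), a difference of -1.63. Upstream and downstream probe thus moved apart: the ratio of their signals was 26.7 in the library labelled Nr4a-deficient, against 1.99 in wild type. A ratio of 2 probes shows only that they changed unequally, not which of them reports the gene. Both probes were printed in 1 spot per array, as were all 24.

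Repeated spots of other probes show how far single spots scatter. Among the probes printed in 10 spots, the SD of the difference between the arrays was 0.058 for 78 probes between -1 and 1 on the scaled log2 axis and 0.112 for 42 probes between -3 and -1. The Pde3b differences were 36.5 and 14.5 times the SD for their brightness. This spread covers spot noise only and leaves out animals, sorts and RNA preparations. More than 1 probe was above background in both libraries for 3799 genes, and 3 of these (0.079%) had a probe at least 2-fold higher and another at least 2-fold lower. Pde3b was 1 of them. The gap between its probes was 3.74, against a median gap of 0.14, and 4 of the 3799 genes had a larger one. Averaged over both probes, Pde3b lay at 0.24, and its 2-fold call was lost.

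Pde4a, a cAMP-specific phosphodiesterase of the family inhibited by rolipram, was higher at both of its probes. The downstream probe gave 1767 and 680.3, a difference of 1.59. The upstream probe gave 380.6 and 260.9, a difference of 0.76, or 1.69-fold. Here the probes pointed the same way, and only the downstream one passed 2-fold. The gap of 0.83 between them was exceeded by 5.26% of genes with several measured probes. Pde4a stayed past 2-fold under all 10 settings, from 1.18 with the mean of its probes to 1.59. For it too, the settings of source table and dim-probe filter only repeated the main value.

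Its close relatives Pde4b and Pde4d, also cAMP-specific, differed less. The brightest Pde4b probe (chr4:102279393-102279452) gave 2802 and 2781, a difference of 0.23 that was -0.14 on the spike-in scale. Its other measured probes lay at 0.35 and 0.79, so all 3 lay above 0 on the percentile scale, and another probe farther upstream was not well above background in either library. Pde4d gave 592.0 and 682.1 at its brightest probe (chr13:110741493-110741552), a difference of 0.01, and -0.06 at a second measured probe. The remaining 2 Pde4d probes were not well above background in either library.

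Pde2a, whose enzyme is stimulated by cGMP and hydrolyses both cyclic nucleotides, was 1.52-fold higher. Its single probe (chr7:108661268-108661327) gave 37900 and 29060, a difference of 0.60. It ranged from 0.24 to 0.63 over the 10 settings and never reached 2-fold. Pde7a encodes a high-affinity cAMP-specific enzyme known from T cells. Its brighter probe (chr3:19126220-19126279) gave 1258 and 1394, a difference of 0.07, and its dimmer one 137.7 and 123.0. That second probe lay at 0.38, where the spot SD was 0.25.

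**Figure D2:**
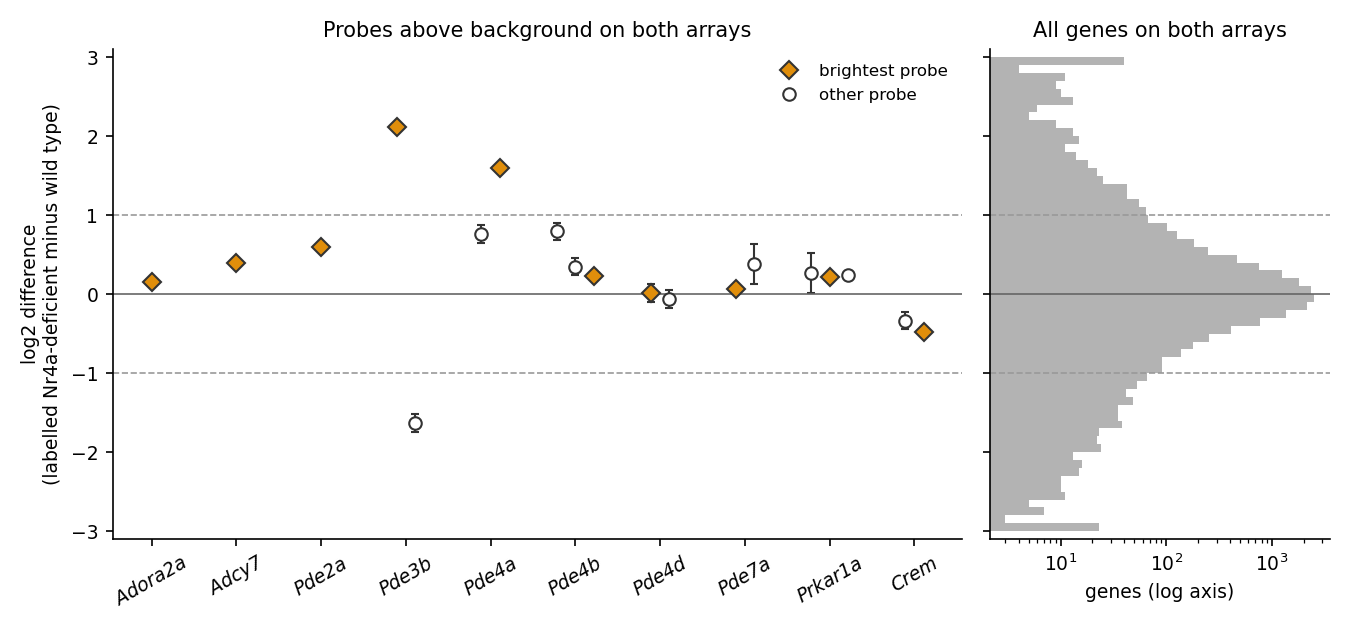
Log2 difference, labelled Nr4a-deficient minus wild type (y axis), of the 19 probes above background on both arrays (left; diamonds are the brightest probe of a gene, bars are 1 SD between repeated spots of that brightness) beside a histogram of all 16298 genes (right, log axis, the end bars holding values beyond -3 and 3). Dashed lines mark 2-fold; 3 probes lie outside them, Pde3b at 2.11 and -1.63 and Pde4a at 1.59.

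Prkar1a encodes the type I alpha regulatory subunit that holds protein kinase A inactive until cAMP binds. Its brightest probe (chr11:109529011-109529070) gave 28290 and 28370, a difference of 0.21. The other 2 probes lay at 0.24 and 0.26. The probe at 0.26 was dim, with 108.2 and 104.7, where the spot SD was 0.25, so its value adds little. On the spike-in scale the difference of the brightest probe was -0.15. Crem, whose products include the inducible repressor ICER, was the only 1 of the 10 genes below 0. Its brightest probe gave 970.5 and 1573, a difference of -0.48, and the second measured probe gave 740.0 and 1084, a difference of -0.33. Crem was lower under all 10 settings, from -0.84 to -0.41, but under none by 2-fold. Of genes on both arrays, 8.12% lay lower still. A further 2 Crem probes were not well above background in either library.

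**Figure D3:**
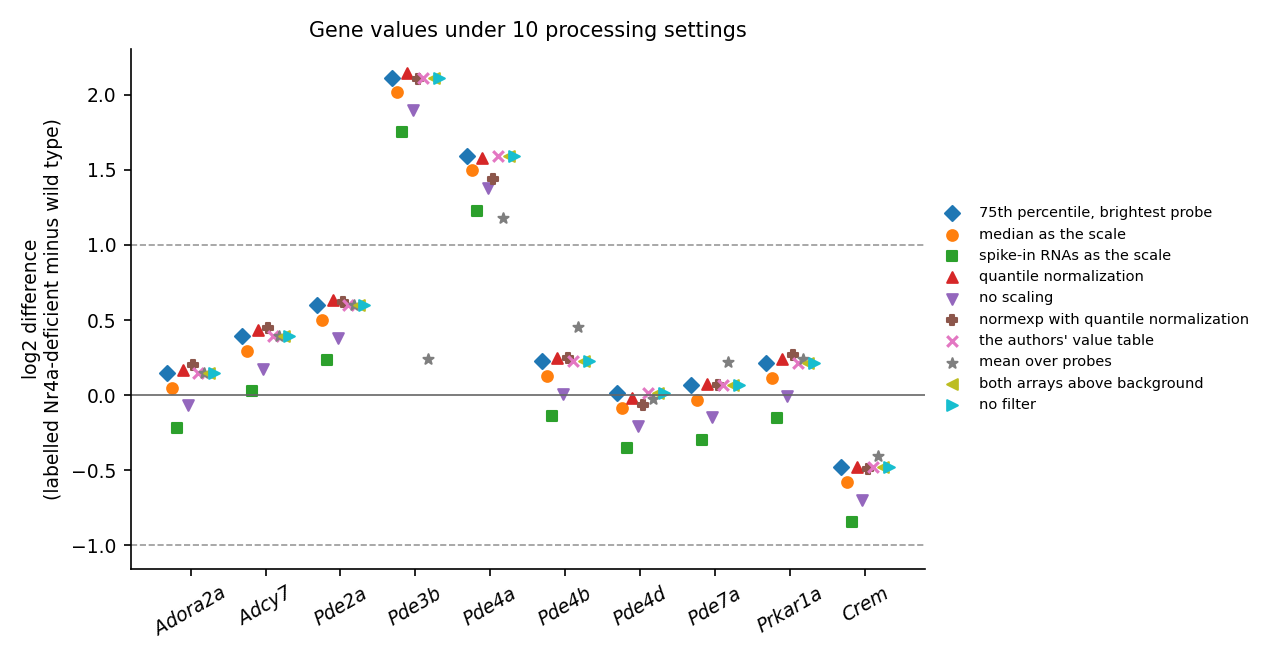
Log2 difference of each of the 10 genes (y axis, labelled Nr4a-deficient minus wild type) under 10 processing settings (symbols), with dashed lines at 2-fold. Pde4a stays above the upper line at every setting, Pde3b falls to 0.24 with the mean of its probes, and Adora2a, Pde4b, Pde4d, Pde7a and Prkar1a cross 0.

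The direction of the small differences depended on the scale. By the 75th percentile 9 of the 10 genes lay above 0, where 47.8% of all genes did. On the spike-in scale 4 did (Pde2a, Pde3b, Pde4a and Adcy7), and 11.4% of all genes.

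The surroundings of these genes in the pathway were read from 97 other genes grouped by role. Both arrays measured 71 of them, of which 3 (4.23%) passed 2-fold upwards and 2 (2.82%) downwards, beside 2.64% and 3.06% of all genes. The counts became 1 and 7 on the spike-in scale. On that scale 236 of the 16298 genes passed 2-fold upwards and 930 downwards, against 431 and 499 on the percentile scale. Among genes past 2-fold, the upward part was 46.3% on the percentile scale, 20.2% on the spike-in scale and 30.3% with no scaling. A further 8 pathway genes were above background on 1 array, which gives only a bound, and 3 of these bounds passed 2-fold. Such a bound sets the brighter value against the higher of the dim value and the lowest scaled signal called above background on the dim array.

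Receptors that raise cAMP through Gs lay on both sides. Of 8 measured on both arrays, 6 were below 0, with a median of -0.66, where 52.2% of all genes lay below 0. Ptger2 and Ptger4, the prostaglandin E2 receptors that raise cAMP, gave 904.3 and 1842 (-0.81) and 3083 and 4774 (-0.41). The prostacyclin receptor gene Ptgir (-0.72), the proton-sensing receptor gene Gpr65 (-0.78) and the lysophosphatidylserine receptor gene Gpr174 (-0.60) were similar, and were chosen after their values were seen. On the spike-in scale Ptger2 (-1.18), Ptgir (-1.08) and Gpr65 (-1.15) passed 2-fold, as did Ptger2 (-1.03) with no scaling. Adrb1, a beta-adrenergic receptor gene, gave 116.3 and 497.5 at its brightest probe (3.68-fold lower), but its other probe lay at 0.32.

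The receptors for vasoactive intestinal peptide went the other way. Vipr1 gave 13660 in the library labelled Nr4a-deficient, against 7016 in wild type, 2.26-fold higher, with 0.60 at its other probe. It was under 2-fold on the spike-in scale (0.81) and with no scaling (0.96). Vipr2 gave 455.9 against 19.77, which was not well above background, and was at least 7.17-fold higher. So 1 gene of this receptor pair was measured in both libraries and the other only in the library labelled Nr4a-deficient.

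Genes listed for adenosine metabolism and receptors all lay within 2-fold by their brightest probes. Of 11 measured, 6 were above 0 and 5 below. They ranged from -0.51 to 0.75, the latter at Dpp4, which is named after its value was seen. Nt5e gave 15980 and 24490 (-0.40) and Entpd1 gave 393.7 and 525.1 (-0.20). The enzymes that remove adenosine, Ada and Adk, lay at 0.09 and 0.50. The receptor gene Adora3 lay at 0.50, the probes of Adora2b at 0.29 and -0.60, and Adora1 was not above background. Adora3 gave only 201.9 and 165.8 and the brighter Adora2b probe 152.6 and 144.4, where the spot SD was 0.25.

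Between receptor and nucleus, most measured genes lay within 2-fold. None of 5 G alpha subunit genes (median -0.02), 3 other adenylyl cyclase genes (median 0.45) or 7 genes of CREB factors and coactivators (median 0.11) passed it, nor did the single measured Epac gene. Of 16 genes for subunits, inhibitors and anchors of protein kinase A, 1 was lower (median 0.04), and on the spike-in scale 3 were, with Akap12 (-1.12) and Akap1 (-1.01), anchoring protein genes chosen after their values were seen. The G protein subunit genes Gnas (-0.21) and Gnai2 (0.18), the catalytic subunit genes Prkaca (0.03) and Prkacb (0.03) and the transcription factor gene Creb1 (0.11) lay close to 0. Atf1, a relative of Creb1, lay at -0.21 at its brightest probe, but its 3 probes ranged from -2.05 to 0. The regulatory subunit gene Prkar1b gave 251.0 in the library labelled Nr4a-deficient, against 878.0 in wild type, 3.01-fold lower, while its relative Prkar1a lay at 0.21. Among phosphodiesterases outside the 10 genes, Pde1c, whose enzyme is activated by calcium and calmodulin, gave 11.45 against 882.1 and was at least 14.9-fold lower. Pde8b, of a high-affinity cAMP-specific family, gave 15.39 against 135.5 and was at least 2.28-fold lower. The other 6 measured on both arrays lay between -0.04 and 0.42 by their brightest probes, although the 3 probes of Pde11a ranged from 0.36 to 1.01. Pde11a was dim: its brightest probe gave 221.6 and 201.1, where the spot SD was 0.25.

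CREB target genes, a list that shares members with the early response to T cell receptor signals, had 2 of 14 measured genes past 2-fold, both upwards. Areg, which encodes the tissue repair factor amphiregulin, gave 619.8 and 140.7 (5.12-fold), and the AP-1 gene Fosb gave 2258 and 1039 (2.53-fold). The median of the list was 0.25, and 12 of 14 lay above 0, beside 47.8% of all genes above 0 and 2.64% past 2-fold upwards. On the spike-in scale the median was -0.12 and 6 of 14 lay above 0. Areg lay at 1.99 on the spike-in scale and Fosb at 0.97, which is under 2-fold. Nr4a1 and Nr4a2 belong to this list and are also the genes the label names.

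**Figure D4:**
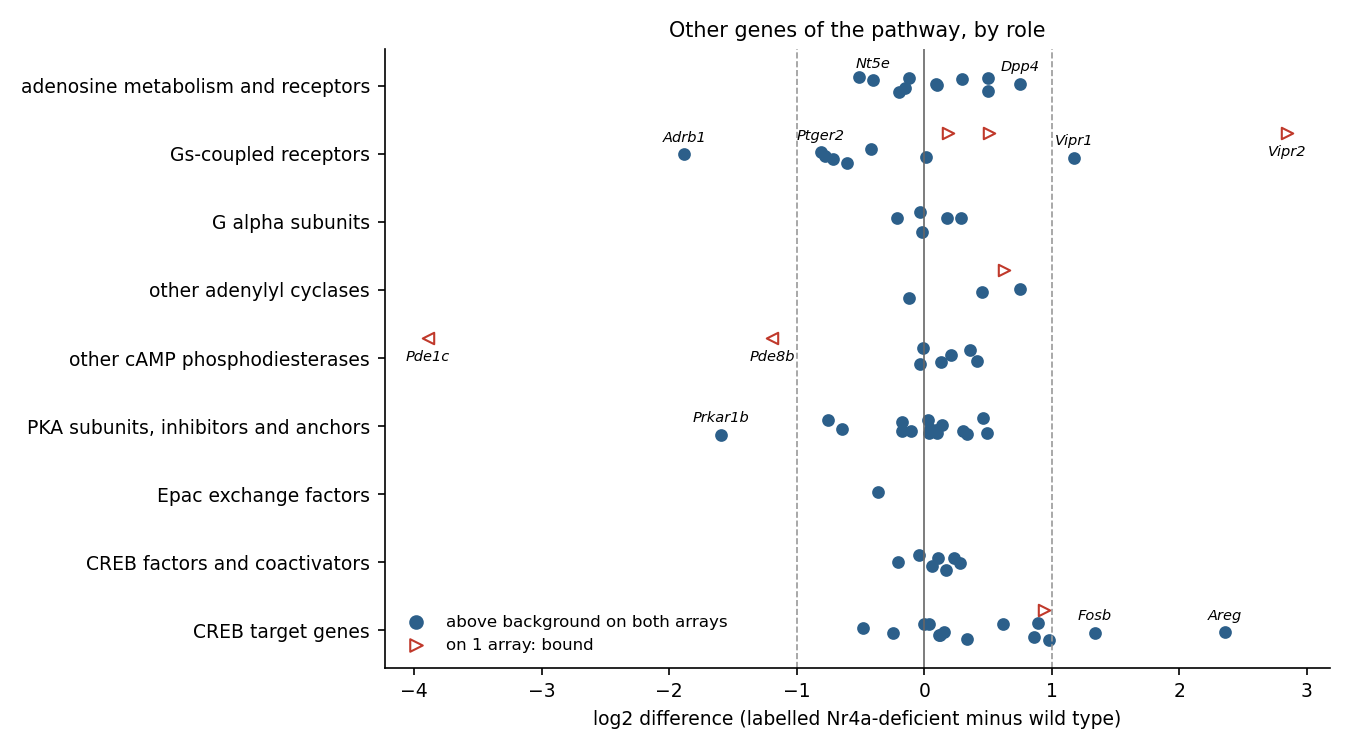
Log2 difference (x axis, labelled Nr4a-deficient minus wild type) of other pathway genes by role (rows), with circles for genes above background on both arrays, open triangles for bounds of genes above background on 1 array, and dashed lines at 2-fold. Most circles lie inside the lines; Adrb1 (-1.88), Prkar1b (-1.59), Vipr1 (1.18), Fosb (1.34) and Areg (2.35) lie outside, as do the bounds of Pde1c, Pde8b and Vipr2.

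Markers of other cells differed between the libraries too, and their counts are read beside the 2.64% and 3.06% of all genes past 2-fold. Counts on the spike-in scale are read beside the 236 higher and 930 lower of all 16298 genes on that scale. All 11 T cell and Treg markers were above background on both arrays, although Foxp3 was dim (74.53 and 85.39), and 2 (Il2ra and Ikzf4) were over 2-fold lower, or 3 on the spike-in scale. Summed over the list, their signal came to 276.2 times the 75th percentile with the Nr4a-deficient label and 324.5 times in wild type, the order and unit of the sums that follow. B cell markers had 3 of 11 higher and none lower (median 0.85, sums 19.6 and 10.6, Pax5 not above background), but on the spike-in scale 1 was higher. Plasmacytoid dendritic cell markers had 6 of 7 higher (median 2.50), also on the spike-in scale, with Klk1 measured in the library labelled Nr4a-deficient only. Their sums, 96.9 and 74.7, were mostly the brightest Siglech probe (77.6 and 72.3), and without Siglech, a sum added after seeing the data, they were 19.2 and 2.46. NK and CD8 T cell markers had none of 5 past 2-fold and 2 bounds higher (sums 2.57 and 1.66, Ncr1 not above background). Myeloid and dendritic cell markers had 3 of 11 higher (Lyz2, Itgax and Clec9a) and 5 lower (C1qa, C1qb, C1qc, Adgre1 and Cd14), or 2 and 6 on the spike-in scale. Their sums were 50.02 and 67.9, and Xcr1 was not above background. Of red cell markers, 3 of 3 measured were lower (sums 7.21 and 25.7, with Klf1, Ppbp, Pf4 and Itga2b not above background). Sums without the brightest gene, also added after seeing the data, were 208 and 244 for T cell and 12.2 and 6.35 for B cell markers. They were 1.73 and 0.71 for NK and CD8 T cell, 26.4 and 49.1 for myeloid and dendritic cell, and 1.82 and 6.75 for red cell markers. The part of these cells in the signals of Pde3b, Pde4a, Pde1c, Vipr1, Vipr2 or any other gene above was not tested.

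RefSeq promoter windows of 300 bases around transcript starts, on build GRCm38.p6, were searched on both strands for the full cAMP response element TGACGTCA and for AAAGGTCA, the element that Nr4a receptors bind as monomers. The table held 22 windows for 6 of the 10 genes (Adcy7, Pde2a, Pde4a, Pde4b, Pde4d and Prkar1a), some of them overlapping. The full cAMP element stood in windows of Prkar1a only, at 1 site covered by 2 windows, and in 1.79% of all 32851 windows. The Nr4a element stood in 1 window of Adcy7, and in 1.51% of all windows. The half-site TGACG, which the full element contains, stood in 7 of the 22 windows and in 20.8% of all windows. The full cAMP element and the Nr4a element are shown with their letters in capitals, since they lie at genes of this pathway.

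Prkar1a, cAMP response element (chr11:109650889-109650918, plus strand): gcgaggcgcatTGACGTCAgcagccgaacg
Adcy7, Nr4a element (chr8:88282753-88282782, plus strand): ctggatacaggAAAGGTCAggcacttggcg

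Both genes lay within 2-fold here, at 0.21 and 0.39. A match of letters is a description of the window and says nothing of binding, and the absence of a match says nothing of the factor.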

How the data were processed

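Total RNA of sorted Treg cells was amplified with a low-input kit and labelled with Cy3, per the labels' protocols. The scanner files as deposited give a background-subtracted, detrended intensity for every spot, made by Agilent Feature Extraction 10.7.3.1 per the file headers. Both arrays shared 1 slide and 1 scan. The value table deposited by the authors repeats that intensity, within 1% for 99.7% of probes on each array, on a linear scale with no centring (medians 143.7 and 156.8).

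Outlier spots (173 and 209) were left out, repeated spots were averaged, and log2 signals were scaled to the 75th percentile. Probes flagged well above background in more than 50% of spots counted as such (58.7% and 55.6% of probes). No spot was saturated. A gene took its brightest probe above background on at least 1 array. RefSeq's gene table (GRCm38.p6) matched probes by accession (27184), symbol (3566) or synonym (562), and 8036 kept the array's name. With 1 array per group no test was possible, and 2-fold was counted as a change. Python 3.11.15, R 4.3.3 and limma 3.58.1 (normexp, offset 50) were used, and the steps were tested on simulated data. The 10 genes, the lists and the thresholds were chosen with earlier results of these data known. Genes named were the 10, pathway genes past 2-fold, the 3 Nr4a genes and a panel of pathway genes. A gene of that panel is not reported here. Alternatives changed the scale, the background correction, the probe rule, the filter on dim probes, the source table and the fold limit.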

Additional observations from a re-analysis of the deposited data

How the results depend on the processing

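The counts of the 10 genes past 2-fold, 2 higher and none lower, held under every alternative run except the mean over probes, which left 1 higher (Pde4a). With a 1.5-fold limit 3 were higher. The alternatives of source table and dim-probe filter left the values of all 10 genes unchanged and were no separate check. The median of the 10 genes, 0.22, was 0.12 with the array median as the scale, 0.003 with no scaling and -0.14 with the spike-ins, since the scale shifts all genes; it was 0.22 to 0.26 under the other alternatives. The counts of other pathway genes, 3 higher and 2 lower, became 1 and 7 with the spike-ins and 2 and 3 with no scaling. Of all 16298 genes, 236 were higher and 930 lower with the spike-ins, and 304 and 699 with no scaling. The pathway counts were 7 and 6 with no filter on dim probes, and 9 and 8 with a 1.5-fold limit. With the mean over probes 2 pathway genes were higher and 1 was lower. Shares of all genes without the filter, at 1.5-fold or with the mean over probes are not given. Counts at those settings, also for the 10 genes, therefore lack a comparison. No paired analysis was possible because each group had 1 array. Dim signals limit the rest: 5 of the 24 probes of the 10 genes were not well above background on either array.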

Other observations

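The other genes with a probe at least 2-fold higher and another at least 2-fold lower were Ccn4 (-1.58 and 1.07) and the interferon-inducible gene Ifi213 (-1.51 and 3.89). Genes with a wider gap between probes than Pde3b were Siglech (6.53), Ifi213 (5.39), Xaf1 (4.68) and Ptpn5 (4.32). All were chosen after their values were seen. Siglech, a defining receptor of plasmacytoid dendritic cells, lay at 0.10 at its brightest probe and at 6.63 at its other one, so the choice of the brightest probe hid the larger value.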
